A study of Mus musculus with 137 samples.

Results

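The comparison set the duodenal crypts of mice that drank 60 ppm hexavalent chromium, Cr(VI), until day 91 against the crypts of mice that drank water with 0 ppm for as long. Members were taken by their labels alone, as crypt libraries at 60 or 0 ppm after 90 days, with 5 mice in each group, and they are 10 of the 71 crypt libraries of a series that also holds 66 villus libraries. The animals of both groups were wild-type female B6C3F1 mice (a hybrid laboratory strain), and the only difference in the labels is Cr(VI), supplied as sodium dichromate dihydrate in drinking water without restriction. Their age was not given in the sources used here. The 90 days of dosing are called day 91, and the shorter arm of the study, after 7 days, is called day 8.

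Each library came from the crypt side of a formalin-fixed, paraffin-embedded duodenal section of a single mouse, left on the slide after the villi had been cut away. Such tissue is a mixture: besides crypt epithelium it can hold lamina propria, muscle and villus bases, so for any gene, fewer cells of a type and less RNA per cell cannot be told apart. RNA was read with TempO-Seq, in which a pair of detector oligonucleotides is ligated on each target transcript and the ligated products are counted, with 30146 probes for 21450 genes. Levels below are read counts scaled to a common library size, CPM, on effective library sizes, and the values of single mice are always listed in the order of mice 3, 5, 6, 7 and 8 for controls and mice 402, 403, 404, 405 and 406 for 60 ppm. Since every probe has its own efficiency, levels are compared between mice and not between genes. Where a gene is said to rise or differ by a value, that value is the fitted log2 difference of 60 ppm against control, with its standard error (SE), and adjusted p-values are from edgeR.

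Total counts overlapped between the groups, but the numbers of probes detected did not, at 21669 to 23112 at 60 ppm and 15603 to 20705 in controls. Total counts ran from 4053967 to 7199801 at 60 ppm and from 2717447 to 5136000 in controls (2-sided exact permutation test over 252 splits of 5 against 5, p = 0.0873). Probes with at least 1 count numbered 22293 ± 736 (SD, n = 5) at 60 ppm and 18424 ± 2104 in controls (exact permutation p = 0.00794, the smallest this design allows, and 0.0159 adjusted over both measures). Controls were also the more variable group, with a median SD of 0.573 against 0.358 for log2 CPM over 15610 probes. Pairs of controls correlated at 0.769 to 0.912 over probes, against 0.924 to 0.959 for pairs of exposed mice. Control mouse 5 held many pancreatic transcripts, mouse 3 had the lowest single correlation, with mouse 8, and mouse 8 had the fewest counts and probes. Mice 3 and 5 were left out together as an alternative chosen after seeing the data. List counts without both are given in 1 paragraph after the lists, and the calls of named genes that were lost without both are stated beside them. How depth and control spread bear on the counts below was not tested beyond those alternatives.

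The intestinal crypt houses the stem cells and dividing progenitors that renew the epithelium, together with Paneth cells, while cells that leave it differentiate into absorptive enterocytes, goblet cells and enteroendocrine cells. Growing cells need ribosomes, translation factors and chaperones, and proteins made for membranes and secretion are folded in the endoplasmic reticulum (ER), whose overload sets off the unfolded protein response. NRF2 is a transcription factor that turns on glutathione and thioredoxin genes under oxidative or electrophilic stress.

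At 60 ppm, many genes for protein folding, ribosome assembly, translation and glutathione and thioredoxin recycling were higher at day 91, and many genes of the brush border and lipid absorption and several of class I antigen presentation were lower. Of 20 chaperonin and heat shock genes 11 rose and 0 fell, of 48 genes of RNA polymerase I and ribosome assembly 22 rose and 0 fell, and of 23 NRF2 target genes 11 rose and 2 fell. Of 30 brush border genes 12 fell and 2 rose, and of 20 lipid absorption genes 7 fell and 1 rose. Across all 19020 genes, with 1 probe a gene, 2983 (15.7%) passed an adjusted p of 0.1 in edgeR's quasi-likelihood test, 2129 (11.2%) higher and 854 (4.49%) lower, and the median log2 difference was 0.12.

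Counting a gene by any of its probes, 3375 genes passed (2306 higher and 1120 lower, 51 of them in both directions through different probes), or 67.3% higher among calls. Without control mouse 8 there were 3303. The split depended on the libraries fitted and on scaling. When the 10 libraries were fitted alone, 5028 genes passed, 2746 higher and 2468 lower, or 52.7% higher. Day 91 crypts fitted alone gave 54.1% higher. With DESeq2's size factors in place of TMM, 3481 genes passed, 1461 higher and 2084 lower, or 41.2% higher. This change of scaling moved 60 ppm against control by 0.286 on the log2 scale, and all genes then had a median of -0.06, with 6.87% higher and 8.44% lower by 1 probe a gene. Counts of the 32 lists are therefore given under both scalings wherever they differ. Among 1357 called genes with another tested probe, 342 had another probe called in the same direction and 46 had one called in the opposite direction.

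**Figure D1:**
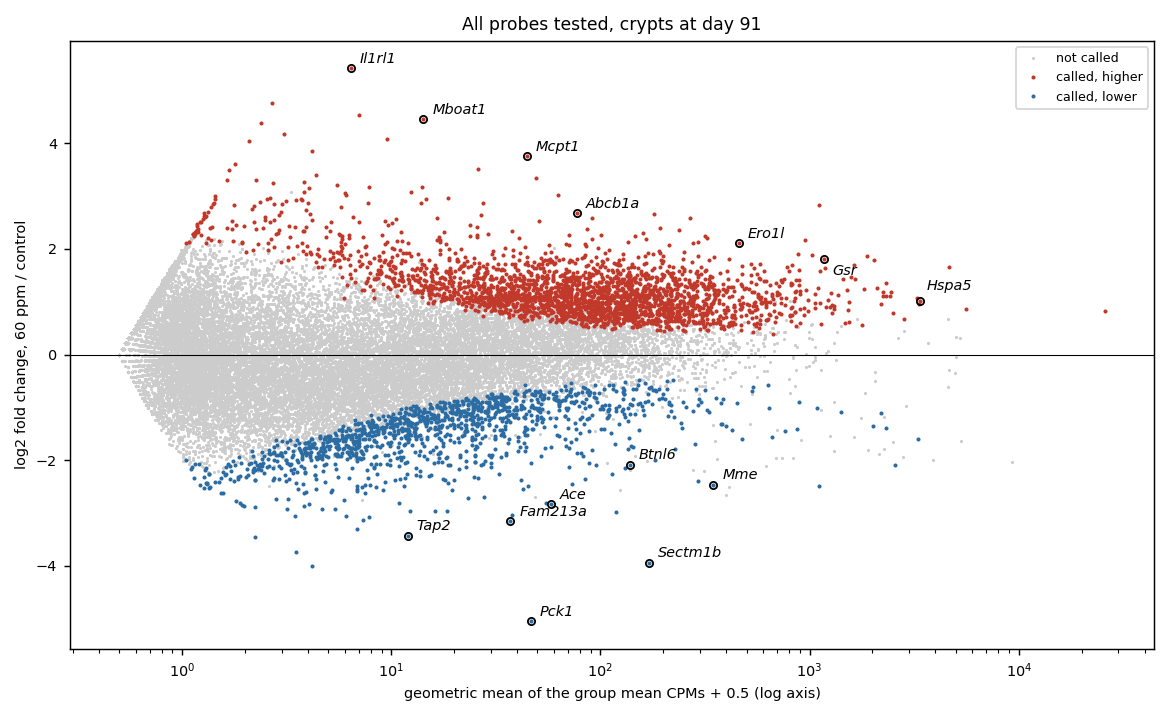
Each point is 1 of the probes tested, with the geometric mean of both groups' mean CPM on the x axis (log axis, 0.5 added) and the log2 difference of 60 ppm against 0 ppm on the y axis; colours mark probes higher or lower at an adjusted p under 0.1. Probes called higher outnumber those called lower, 11.2% against 4.49% of genes by 1 probe a gene, and *Pck1* lies among the lowest with -5.05.

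Genes with the smallest p were named only where the groups did not overlap, so for them the lack of overlap was part of the choice, and over all genes 11.4% lay higher and 3.51% lower at 60 ppm without overlap. One of these was *Ero1l*, the ER oxidase that recycles protein disulphide isomerase, at 135, 316, 138, 255 and 256 CPM in controls and 1194, 955, 768, 794 and 1053 CPM at 60 ppm. Every exposed mouse lay above every control, and the log2 difference was 2.11 (SE 0.230, adjusted p = 8.96e-12), a fold of 4.33. *Hspa5*, the ER chaperone BiP and a member of the unfolded protein response list, was at 1684, 2984, 1998, 3029 and 2165 CPM in controls and 4286, 6247, 5040.1, 4232 and 4121 CPM at 60 ppm, with no overlap and a log2 difference of 1.01 (SE 0.181, adjusted p = 1.38e-05).

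*Hspa8*, the constitutive cytosolic Hsp70, was at 307, 611, 352, 600.1 and 403 CPM in controls and 1672, 1898, 1500.2, 1219.9 and 1115 CPM at 60 ppm. The lowest exposed mouse, 406, was well above the highest control, mouse 5, and the log2 difference was 1.70 (SE 0.237, adjusted p = 4.46e-08). Other chaperones that rose included *Hspa4*, an Hsp110-type exchange factor, by 1.42 (SE 0.179), the mitochondrial Hsp70 *Hspa9* by 1.60 (SE 0.265), and *Cct3*, a subunit of the TRiC chaperonin that folds actin and tubulin, by 1.94 (SE 0.292). The inducible *Hspa1b* was at 1.97 to 27.4 CPM in controls and 4.76 to 12.2 CPM at 60 ppm, overlapping, with a log2 difference of -0.25 (SE 0.626, adjusted p = 0.854). Median log2 difference over the 20 chaperonin and heat shock genes was 1.01, and with DESeq2's size factors 10 rose, 1 fell and the median was 0.73.

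In the unfolded protein response list, 9 of 26 genes rose and 1 fell, with a median of 0.58, and under DESeq2's size factors 8 rose, 4 fell and the median was 0.31. Those that rose were *Hspa5*, *Calr*, *Pdia3*, *Pdia6*, *Manf*, *Creld2*, *Dnajb9*, *Edem1* and *Sdf2l1*, which encode ER chaperones, disulphide isomerases and factors of ER-associated degradation. *Manf*, a secreted ER stress protein, was at 186 to 348 CPM in controls and 615 to 1079.7 CPM at 60 ppm, a log2 difference of 1.68 (SE 0.256, adjusted p = 5.65e-07). The member that fell was *Xbp1*, which encodes a transcription factor of the same response, at 186, 174, 188, 161 and 104 CPM in controls and 51.5, 67.7, 83.2, 73.9 and 91.2 CPM at 60 ppm. All exposed values of *Xbp1* lay below the lowest control, and the log2 difference was -1.14 (SE 0.287, adjusted p = 0.00249). Members that encode the response's transcription factors ATF4, CHOP (*Ddit3*) and ATF3 did not pass.

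Promoters of this list are shown because 9 of its members rose and several carry a known sequence element of this response. The ER stress response element was searched as CCAAT and CCACG with 9 bases between them, on both strands, in the 250 bases before each gene's start, from RefSeq on GRCm38.p6, and it contains the shorter CCAAT box. It stood in 7 of 24 matched list promoters (29.2%), in 4 of the 8 matched promoters of members that rose, and in 0.122% of all 27025 promoters in the table. The match is a description of these letters, and the motif was added after the values were seen. Promoters shown are those with the smallest p among members that rose and hold the element. Its presence in them was thus fixed by the choice. Below, capitals mark the element, and all 3 sequences run 5′ to 3′ on the gene's strand.
Hspa5, chr2:34771840-34772089, plus strand: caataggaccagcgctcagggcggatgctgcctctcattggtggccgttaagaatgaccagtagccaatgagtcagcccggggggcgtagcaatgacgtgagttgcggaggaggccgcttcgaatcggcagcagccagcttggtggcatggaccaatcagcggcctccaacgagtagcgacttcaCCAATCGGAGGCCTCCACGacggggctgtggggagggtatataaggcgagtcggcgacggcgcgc
Calr, chr8:84846932-84847181, minus strand: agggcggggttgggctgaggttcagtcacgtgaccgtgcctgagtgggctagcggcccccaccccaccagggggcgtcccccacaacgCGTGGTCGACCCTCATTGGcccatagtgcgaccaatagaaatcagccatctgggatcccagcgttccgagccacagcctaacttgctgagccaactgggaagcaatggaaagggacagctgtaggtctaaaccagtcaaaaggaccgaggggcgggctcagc
Pdia6, chr12:17266339-17266588, plus strand: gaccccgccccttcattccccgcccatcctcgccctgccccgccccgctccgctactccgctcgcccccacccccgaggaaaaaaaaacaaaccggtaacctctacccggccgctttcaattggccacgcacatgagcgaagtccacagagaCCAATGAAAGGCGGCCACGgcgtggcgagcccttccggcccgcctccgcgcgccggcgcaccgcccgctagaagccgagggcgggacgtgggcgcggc
In *Hspa5* and *Pdia6* the element reads forwards, beginning 65 and 98 bases before the start, and in *Calr* it lies on the opposite strand, 162 bases before it.

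Many genes of ribosome production and translation rose. Of the 48 genes of RNA polymerase I and ribosome assembly, 22 rose, 0 fell and 26 did not pass, with a median of 0.74, and with DESeq2's size factors 15 rose and the median was 0.46. *Ddx21*, a nucleolar RNA helicase, was at 17.2, 52.9, 32.2, 47.6 and 37.7 CPM in controls and 252, 215, 184, 118 and 214 CPM at 60 ppm. Even mouse 405, the lowest of the exposed, was above the highest control, and the log2 difference was 2.38 (SE 0.359, adjusted p = 3.75e-07). *Ubtf*, which loads RNA polymerase I on ribosomal DNA, differed by 1.2 (SE 0.223), and *Fbl*, the methyltransferase of box C/D particles, by 1.18 (SE 0.309).

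Of 53 translation initiation factors 19 rose and 1 fell, of 20 cytosolic aminoacyl-tRNA synthetases 9 rose and 0 fell, and of 76 cytosolic ribosomal protein genes 27 rose and 2 fell. The same lists had 18 higher and 4 lower, 7 higher and 0 lower, and 20 higher and 6 lower with DESeq2's size factors, and their medians went from 0.51, 0.66 and 0.51 to 0.22, 0.41 and 0.22. *Eif6*, which keeps the 60S subunit apart from the 40S, was at 346 to 520.4 CPM in controls and 1139 to 1790.5 CPM at 60 ppm, a log2 difference of 1.58 (SE 0.192, adjusted p = 7.53e-10). *Eif5* differed by 1.86 (SE 0.272) and *Nars*, the asparaginyl-tRNA synthetase, by 2.10 (SE 0.295). *Rpl27* rose by 1.58 (SE 0.244), whereas *Rplp2*, an acidic stalk protein, fell, with a log2 difference of -0.94 (SE 0.297), a call lost without control mouse 3 (log2 difference -0.73) and without control mice 3 and 5 (-0.75). Ribosomal protein genes have many near-identical processed copies, so reads at single members are uncertain.

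Of 66 splicing factors 25 rose and 2 fell (median 0.39, and 20, 2 and 0.10 with DESeq2's size factors), among them *Sf3b1* of the U2 particle with 1.22 (SE 0.224). Of 48 proteasome subunits 19 rose and 4 fell, or 14 and 5 with DESeq2's size factors, with a median of 0.28 that came to 0.01 with those factors and -0.06 with total count scaling. The 4 that fell were *Psmb9*, *Psmb10*, *Psme1* and *Psme2*, which encode the interferon-inducible immunoproteasome and its activator, while *Psmc1* and *Psmd6* of the standard 26S particle rose by 1.38 (SE 0.196) and 1.66 (SE 0.249). Mitochondrial ribosomal proteins had 21 of 75 higher and 1 lower at a median of 0.26, or 16 higher and 2 lower at a median of -0.01 with DESeq2's size factors. The 78 subunits of oxidative phosphorylation divided into 16 higher and 9 lower at a median of 0.07, and into 10 higher and 20 lower at a median of -0.22 with DESeq2's size factors, so no common direction can be given for them. *Ndufc2* (2.20 (SE 0.357)) and *Ndufs6* (-1.34 (SE 0.348)), both of complex I, are examples at the ends of that range.

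**Figure D2:**
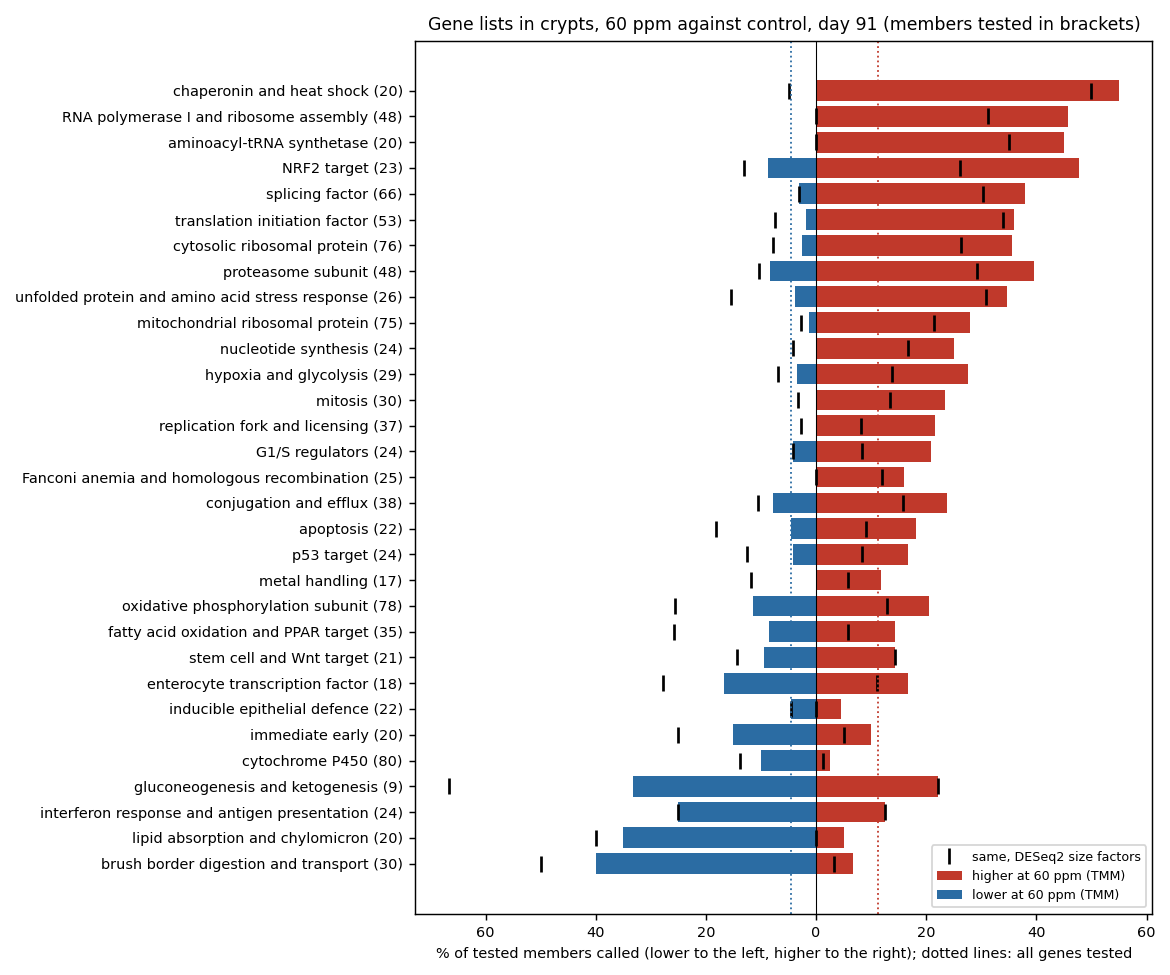
Bars give the percent of tested members of each gene list called higher (right) or lower (left) at 60 ppm with TMM, ticks the same with DESeq2's size factors, and dotted lines the percent over all genes (11.2% higher and 4.49% lower). Chaperonin and heat shock genes reach 55% higher and brush border genes 40% lower.

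Antioxidant genes rose in part. In the NRF2 target list 11 of 23 rose and 2 fell at a median of 0.67, and 6 rose and 3 fell at a median of 0.39 with DESeq2's size factors. *Gsr*, the reductase that regenerates glutathione, was at 478, 740.0, 598, 715 and 584 CPM in controls and 2764, 2307, 1907, 1656 and 2287 CPM at 60 ppm. All exposed mice were above the highest control, mouse 5, and the log2 difference was 1.81 (SE 0.260, adjusted p = 1.25e-07). *Gclm*, the modifier subunit of the enzyme that starts glutathione synthesis, was at 25.5, 59.2, 69.1, 55.9 and 99.9 CPM and 264, 195, 148, 156 and 176 CPM, a log2 difference of 1.60 (SE 0.287, adjusted p = 1.38e-05). *Txnrd1*, thioredoxin reductase, rose by 1.26 (SE 0.234).

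The 2 members of that list that fell were *Txn1*, thioredoxin, and *Sod1*, the cytosolic superoxide dismutase. *Txn1* was at 632, 329, 644, 482 and 307 CPM in controls and 209.9, 213, 237, 249 and 223 CPM at 60 ppm, without overlap, and the log2 difference was -1.08 (SE 0.279, adjusted p = 0.00348). *Sod1* differed by -1.15 (SE 0.342, adjusted p = 0.0134), a call lost without control mice 3 and 5 (log2 difference -1.0). *Hmox1*, *Nqo1* and *Slc7a11*, also NRF2 targets, did not pass.

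The antioxidant response element, searched as TGAC and GC with 3 bases between them on both strands and added after the values were seen, was present in 5 of 20 matched NRF2 list promoters (25%), in 3 of the 9 matched among those that rose, and in 10.1% of all promoters in the table. It stood also in 6 of 25 matched mitosis promoters (24%) and 5 of 24 of the unfolded protein response list (20.8%). Its share was thus not particular to the NRF2 list. The *Gclm* promoter is shown because *Gclm* had the smallest p among NRF2 list members that rose and hold the element. Its presence there was thus fixed by the choice. In this promoter the element lies on the opposite strand and begins 134 bases before the start.
Gclm, chr3:122245307-122245556, plus strand, GRCm38.p6, element in capitals: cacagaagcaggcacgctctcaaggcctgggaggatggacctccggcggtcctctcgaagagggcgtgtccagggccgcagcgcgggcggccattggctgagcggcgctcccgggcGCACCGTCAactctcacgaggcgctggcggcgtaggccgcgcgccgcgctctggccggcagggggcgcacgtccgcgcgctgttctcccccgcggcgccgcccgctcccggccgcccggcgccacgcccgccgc

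*Abcb1a*, which encodes the efflux pump P-glycoprotein, had the smallest p of all genes together with *Ero1l*. One probe gave 37.3, 35.5, 15.9, 18.1 and 44.5 CPM in controls and 246, 202, 173, 164 and 176 CPM at 60 ppm, a log2 difference of 2.68 (SE 0.291, adjusted p = 8.96e-12). The other gave 83.4 to 146 CPM and 322 to 393 CPM, a log2 difference of 1.77 (SE 0.285, adjusted p = 1.57e-06), so both probes separated the groups but by different amounts. Of 38 conjugation and efflux genes 9 rose and 3 fell at a median of -0.01, and with DESeq2's size factors 6 rose and 4 fell at a median of -0.30. *Gsta2*, a glutathione transferase, rose by 2.18 (SE 0.403) and *Ugt1a1*, the bilirubin glucuronosyltransferase, fell, with a log2 difference of -1.06 (SE 0.276); alpha class glutathione transferases are near-identical, which makes the reading of single members uncertain.

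Among 80 tested cytochrome P450 genes 8 fell and 2 rose (10% and 2.5%), with a median of 0.07, while with DESeq2's size factors 11 fell, 1 rose and the median was -0.01. *Cyp2b10*, a drug-inducible P450, was at 217, 247, 379.7, 400.4 and 437 CPM in controls and 70.9, 50.2, 17.5, 26.6 and 43.8 CPM at 60 ppm. Its highest exposed mouse, 402, was below the lowest control, mouse 3, and the log2 difference was -2.98 (SE 0.539, adjusted p = 1.54e-05). *Cyp3a25* fell, with a log2 difference of -1.76 (SE 0.449).

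Many genes of enterocyte digestion and transport fell. *Mme*, the brush border peptidase neprilysin, was at 964, 724, 1110.3, 655 and 619 CPM in controls and 199, 152, 108, 153 and 125 CPM at 60 ppm. All exposed mice lay below the lowest control, and the log2 difference was -2.46 (SE 0.376, adjusted p = 5.65e-07), or 5.52-fold lower. *Ace*, another brush border peptidase, was at 106 to 221 CPM in controls and 11.6 to 34.8 CPM at 60 ppm (-2.84 (SE 0.450, adjusted p = 1.05e-06)). *Slc6a20a*, a proline transporter, fell at both of its probes, with log2 differences of -2.46 (SE 0.379) and -2.06 (SE 0.339).

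In the brush border list of 30 genes the median was -0.79, and with DESeq2's size factors 15 fell, 1 rose and the median was -1.07. *Guca2b*, which encodes the hormone uroguanylin, was at 212, 166, 113, 104 and 132 CPM in controls and 15.7, 14.6, 10.3, 32.0 and 29.1 CPM at 60 ppm, a log2 difference of -2.81 (SE 0.562, adjusted p = 8.68e-05). *Mgam*, maltase-glucoamylase, fell, with a log2 difference of -1.11 (SE 0.253). Lactase (*Lct*) and the transporters *Slc9a3*, *Slc2a5*, *Slc15a1* and *Slc5a1*, for sodium, fructose, peptides and glucose, were also among the 12 that fell. *Myo7b*, a myosin of the microvillus tip, rose by 0.93 (SE 0.228), and *Vil1*, which bundles microvillus actin, was at 3084 to 5864 CPM and 5021 to 7731 CPM with a log2 difference of 0.32 (SE 0.195, adjusted p = 0.354) that turned to -0.0217 with total count scaling.

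Of 20 genes for lipid absorption and chylomicrons, 7 fell and 1 rose at a median of -0.58, and with DESeq2's size factors 8 fell, 0 rose and the median was -0.85. *Apob*, the structural protein of chylomicrons, was at 236, 83.8, 199.8, 131 and 150.0 CPM in controls and 47.0, 37.3, 43.6, 41.9 and 38.8 CPM at 60 ppm, all exposed mice being lower than all controls, with a log2 difference of -1.93 (SE 0.332, adjusted p = 6.35e-06). *Cd36*, a fatty acid receptor, and *Abcg5*, part of the sterol exporter, fell, with log2 differences of -2.27 (SE 0.550) and -1.94 (SE 0.396). The member that rose, *Fabp2*, an intracellular fatty acid carrier, differed by 0.83 (SE 0.306, adjusted p = 0.0634), a call lost in 16 alternatives, among them DESeq2's size factors (log2 difference 0.55), total count scaling (0.48), summed probes, thinned counts and leaving out mouse 3, 6, 7, 402 or 403, or control mice 3 and 5 (0.72).

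The largest decrease among named genes was that of *Pck1*, the rate-limiting enzyme of gluconeogenesis, at 265, 393, 264, 119.8 and 296 CPM in controls and 9.90, 8.13, 4.84, 8.78 and 6.28 CPM at 60 ppm. All exposed mice were far below the lowest control, mouse 7, and the log2 difference was -5.05 (SE 0.589, adjusted p = 7.74e-11), 33.1-fold lower. *Fbp1* and *G6pc*, the later enzymes of the same pathway, fell, with log2 differences of -1.50 (SE 0.397) and -1.93 (SE 0.698), the latter a call lost without control mouse 6 (-1.58) and with edgeR's legacy=TRUE (-1.86). In the same 9-gene list of gluconeogenesis and ketone metabolism *Bdh1* and *Oxct1*, which use ketone bodies, rose, *Bdh1* by 1.58 (SE 0.314). That list had 2 higher and 3 lower, or 2 and 6 with DESeq2's size factors. *Xdh*, xanthine dehydrogenase, fell at both probes, with log2 differences of -2.97 (SE 0.476) and -1.48 (SE 0.301), as did the peroxiredoxin-like *Fam213a*, with -3.16 (SE 0.502) and -2.49 (SE 0.421).

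Not all enterocyte genes went down. *Acsl5*, a fatty acyl-CoA synthetase, rose by 1.64 (SE 0.318), and the transcription factors *Klf5* and *Hnf4g* rose by 1.44 (SE 0.297) and 1.25 (SE 0.338). Of 18 enterocyte transcription factors 3 rose and 3 fell, or 2 and 5 with DESeq2's size factors (median -0.11 and -0.39), and of 35 genes of fatty acid oxidation and PPAR targets 5 rose and 3 fell, or 2 and 9 with DESeq2's size factors. These lists were 16.7% and 14.3% higher, against 11.2% of all genes, and 16.7% and 8.57% lower, against 4.49%.

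Some genes of cell division rose. In the replication list 8 of 37 rose and 0 fell at a median of 0.56, in the mitosis list 7 of 30 rose and 0 fell at a median of 0.66, and in the nucleotide synthesis list 6 of 24 rose and 0 fell at a median of 0.32. As shares, 21.6%, 23.3% and 25% of members were higher, against 11.2% of all genes. With DESeq2's size factors the counts were smaller, at 3, 4 and 4 higher with 1 lower in each list. Over all genes 6.87% were higher under those factors, so 3 of 37 in the replication list was near that share. Without control mice 3 and 5 the lists had 4, 3 and 4 higher, where 1383 of all 19020 genes were higher. *Plk1*, a mitotic kinase, was at 31.5, 44.5, 30.6, 76.5 and 31.1 CPM in controls and 165, 145, 162, 114 and 185 CPM at 60 ppm, with control mouse 7 the nearest to the exposed mice and a log2 difference of 1.83 (SE 0.404, adjusted p = 0.000446). *Ccnb1*, cyclin B1, rose by 1.49 (SE 0.372) and *Mcm10*, a replication initiation factor, by 1.84 (SE 0.428).

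The proliferation markers *Mki67*, *Top2a* and *Pcna* did not pass, though *Top2a* (0.40) and *Pcna* (0.45) did so when day 91 crypts were fitted alone. *Top2a* was at 142 to 231 CPM in controls and 206 to 257 CPM at 60 ppm (0.45 (SE 0.398, adjusted p = 0.558)), and *Pcna* at 54.7 to 138 CPM and 139.7 to 198 CPM (0.50 (SE 0.231, adjusted p = 0.169)). Regulators of the entry into S phase showed 5 of 24 higher and 1 lower at a median of 0.17, or 2 and 1 at a median of -0.10 with DESeq2's size factors. That is 20.8% higher against 11.2% of all genes, of which 6.87% were higher with DESeq2's size factors. *E2f3*, an activator of S phase genes, was at 13.8, 28.9, 11.9, 15.99 and 35.7 CPM in controls and 102, 96.1, 85.9, 69.9 and 78.8 CPM at 60 ppm, a log2 difference of 2.05 (SE 0.399, adjusted p = 5.73e-05). *Ccne1*, cyclin E1, rose by 2.02 (SE 0.440), and *Cdkn1b*, the inhibitor p27, fell, with a log2 difference of -1.41 (SE 0.305).

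Of 21 stem cell and Wnt target genes 3 rose and 2 fell, with a median of 0.02, or 3 and 3 with a median of -0.26 with DESeq2's size factors. That is 14.3% higher and 9.52% lower, against 11.2% and 4.49% of all genes. *Ephb2*, a receptor that positions cells in the crypt, was at 51.9, 52.4, 43.4, 83.6 and 41.6 CPM in controls and 166, 167, 119, 115 and 157 CPM at 60 ppm, and *Cd44*, a Wnt target and hyaluronan receptor, at 62.3, 62.2, 60.2, 68.2 and 72.4 CPM and 228, 270.0, 226, 159 and 190.4 CPM. Both separated the groups, by 1.39 (SE 0.376) and 1.72 (SE 0.341), though the call of *Ephb2* was lost with DESeq2 (1.12) and with edgeR's legacy=TRUE. *Bmi1* rose too, while *Lrig1*, a brake on growth factor receptors in stem cells, fell, with a log2 difference of -1.86 (SE 0.598) (a call lost with legacy=TRUE), together with *Rgmb*. *Olfm4*, a stem cell marker, overlapped between groups at 157 to 354 CPM and 293 to 462 CPM, with a log2 difference of 0.29 (SE 0.484, adjusted p = 0.784) that turned to -0.0406 with total count scaling, and *Lgr5* did not pass.

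In the DNA damage lists, 4 of 25 genes of Fanconi anemia and homologous recombination rose and 0 fell, or 3 and 0 with DESeq2's size factors. Of 24 p53 targets 4 rose and 1 fell at a median of 0.15, which turned to -0.14 with DESeq2's size factors, under which 2 rose and 3 fell. As shares, 16% and 16.7% of these lists rose, against 11.2% of all genes. With DESeq2's size factors 6.87% of all genes were higher and 8.44% lower. *Mdm2*, the ubiquitin ligase of p53, rose by 1.09 (SE 0.342), a call lost with DESeq2's size factors (log2 difference 0.79), with DESeq2, with thinned counts, with total count scaling and without mouse 402, and *Cdkn1a* did not pass. *Trp53* itself was at 86.7 ± 18.9 CPM (SD, n = 5) in controls and 159 ± 5.48 CPM at 60 ppm, a log2 difference of 0.87 (SE 0.220, adjusted p = 0.00281) that did not pass with total count scaling (0.53).

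Of 29 hypoxia and glycolysis genes 8 rose and 1 fell at a median of 0.20, which turned to -0.07 with DESeq2's size factors, under which 4 rose and 2 fell. *Eno1*, enolase, and *Pfkp*, phosphofructokinase, rose by 1.29 (SE 0.268) and 1.07 (SE 0.219). *Tfrc*, the transferrin receptor, rose by 1.67 (SE 0.435), and it was 1 of 2 that rose among 17 metal handling genes, the other being the iron importer *Slc11a2*, whose call was lost in most alternatives. No metal handling gene fell, while with DESeq2's size factors 1 rose and 2 fell. Of 20 immediate early genes 2 rose and 3 fell, or 1 and 5 with DESeq2's size factors. Of 22 apoptosis genes 4 rose and 1 fell at a median of -0.01, and with DESeq2's size factors 2 rose and 4 fell at a median of -0.27. One that rose was *Mcl1*, which restrains apoptosis, with 1.79 (SE 0.358). Of 22 inducible epithelial defence genes 1 rose and 1 fell, or 0 and 1 with DESeq2's size factors. Members higher were 27.6% in hypoxia and glycolysis, 11.8% in metal handling, 10% in immediate early, 18.2% in apoptosis and 4.55% in defence genes. Of all genes 11.2% were higher, so metal handling and immediate early genes were near that share. Members lower were 3.45%, 0%, 15%, 4.55% and 4.55% in the same order, against 4.49% of all genes. All genes were 6.87% higher and 8.44% lower with DESeq2's size factors. As a check on probes with little signal, 2 of 705 tested olfactory receptors (0.284%) were called, both higher, and with DESeq2's size factors 1 was higher and 1 lower.

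Several genes of class I antigen presentation fell. *Tap2*, part of the peptide transporter of the ER, was at 54.1, 26.7, 58.2, 27.9 and 28.2 CPM in controls and 3.69, 3.11, 5.27, 2.26 and 1.33 CPM at 60 ppm, with all exposed mice far below the lowest control and a log2 difference of -3.44 (SE 0.498, adjusted p = 2.97e-08). *Psmb9*, a catalytic subunit of the immunoproteasome, was at 107, 103, 158, 174 and 107 CPM in controls and 48.4, 36.6, 24.4, 41.9 and 37.3 CPM at 60 ppm, also without overlap, with a log2 difference of -1.78 (SE 0.280, adjusted p = 1.01e-06). *B2m*, the light chain of class I molecules, was at 68.1, 85.1, 160.3, 119.6 and 58.6 CPM and 63.1, 49.3, 31.4, 40.8 and 53.5 CPM, so that its ranges overlapped, with a log2 difference of -1.05 (SE 0.292, adjusted p = 0.00737).

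In the list of interferon response and antigen presentation 6 of 24 fell and 3 rose, at a median of -0.49 that turned to 0.07 without control mice 3 and 5. That is 25% lower and 12.5% higher, against 4.49% and 11.2% of all genes. The 6 were *Psmb9*, *Tap1*, *B2m*, *Irf1*, *Cd74* and *H2-Ab1*, and the 3 were *Mx1*, *Mx2* and *Oas1a*, antiviral effectors of type I interferon. *Mx1* was at 3.64, 2.18, 0.927, 2.31 and 9.83 CPM in controls and 25.1, 17.5, 9.69, 24.6 and 15.6 CPM at 60 ppm, with mouse 404 just below control mouse 8, a log2 difference of 2.27 (SE 0.608, adjusted p = 0.00221). *Irf1*, a transcription factor of the interferon gamma response, fell, with a log2 difference of -1.06 (SE 0.231).

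Without control mice 3 and 5, an alternative chosen after seeing the data, 1383 of all 19020 genes were higher and 463 lower by 1 probe a gene, fewer than in the full comparison. There were 17 ribosome assembly genes higher and 0 lower, 11 chaperonin and heat shock genes higher and 0 lower, and 9 brush border genes lower and 1 higher. Lists whose counts moved more were the NRF2 targets, with 6 higher and 1 lower, conjugation and efflux with 4 and 3, and hypoxia and glycolysis with 4 and 1. Oxidative phosphorylation had 10 and 5, fatty acid oxidation and PPAR targets 2 and 0, S phase regulators 3 and 1, apoptosis 2 and 0, cytosolic ribosomal proteins 25 and 0, and gluconeogenesis and ketone metabolism 2 and 5. Replication and mitosis are given above, and counts of the remaining lists changed by at most 1.5 times or by 1 gene in a direction.

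A narrower list of 15 genes for class I heavy chains, peptide loading and the immunoproteasome, drawn up after the values were seen and so given as a description, had 12 lower and 0 higher at a median of -1.2. *Tapbp*, the chaperone tapasin, was at 27.6 to 60.4 CPM in controls and 5.44 to 10.04 CPM at 60 ppm. Heavy chain genes are near-identical, and the *H2-K1* probes show how uncertain they are: one differed by -1.73 (SE 0.274, adjusted p = 1.05e-06) and the other by -0.01 (SE 0.193, adjusted p = 1).

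*Btnl6* and *Sectm1b*, whose products act on lymphocytes, also fell. *Btnl6*, a butyrophilin-like molecule of enterocytes, was at 249.8, 229, 388, 221 and 336 CPM in controls and 104, 67.7, 47.8, 58.0 and 55.2 CPM at 60 ppm (-2.09 (SE 0.284, adjusted p = 2.64e-08)). *Sectm1b*, which encodes a CD7 ligand, was at 349, 648, 658, 628 and 1097 CPM and 121, 43.5, 8.85, 19.5 and 21.5 CPM (-3.95 (SE 0.652, adjusted p = 2.88e-06)), where mouse 402 was the highest of the exposed and still below all controls.

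**Figure D3:**
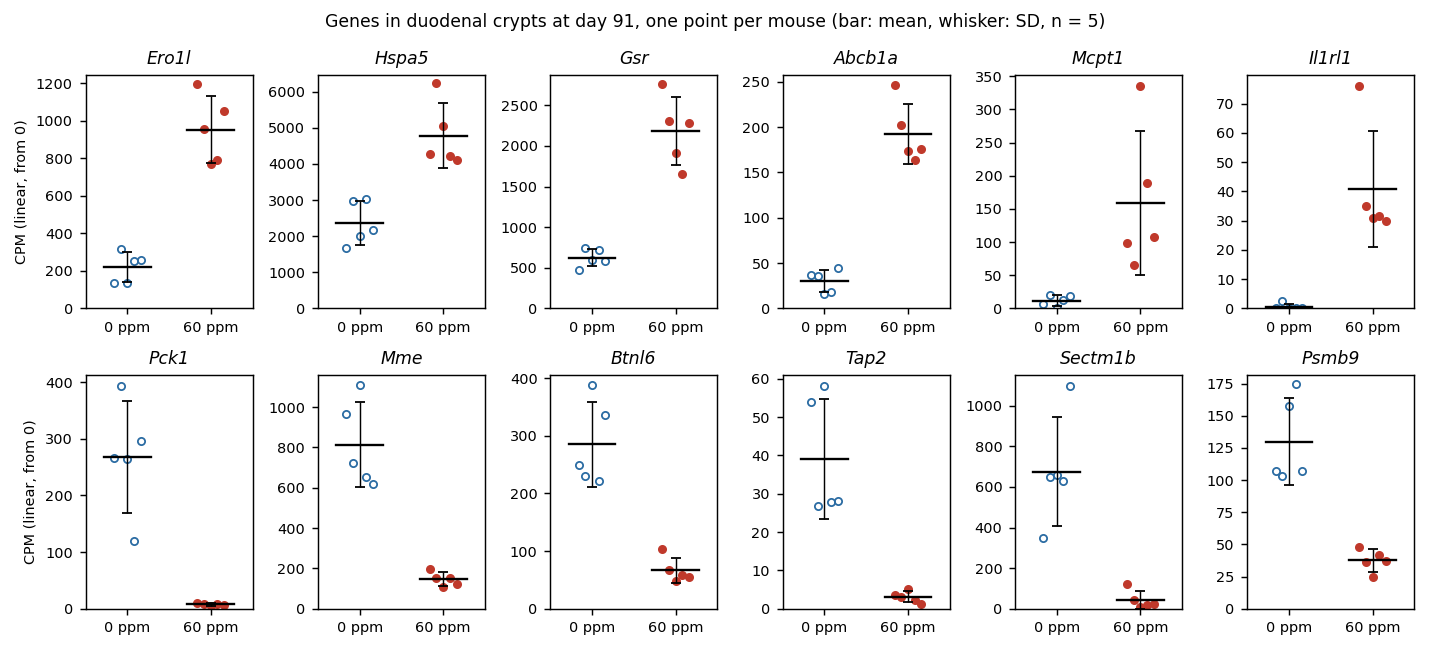
CPM of 12 genes, 1 point per mouse on a linear axis from 0, with the mean as a bar and the SD as whiskers, for 0 ppm and 60 ppm crypts at day 91 (n = 5 each). *Ero1l*, *Hspa5*, *Gsr*, *Abcb1a*, *Mcpt1* and *Il1rl1* lie higher at 60 ppm and *Pck1*, *Mme*, *Btnl6*, *Tap2*, *Sectm1b* and *Psmb9* lower, with no overlap between groups in any of the 12.

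Genes of mucosal mast cells were among the largest relative increases. *Il1rl1*, the receptor of the alarmin IL-33, was at 0, 2.46, 0, 0 and 0 CPM in controls and 76.1, 35.2, 31.0, 31.7 and 29.9 CPM at 60 ppm, with 4 controls at 0. *Mcpt1*, a chymase stored in mucosal mast cells, was at 6.79, 20.2, 1.11, 12.9 and 18.3 CPM in controls and 98.3, 66.0, 336, 189.7 and 107 CPM at 60 ppm, highest in mouse 404. The log2 differences were 5.42 (SE 0.912, adjusted p = 2.65e-08) and 3.75 (SE 0.632, adjusted p = 3.00e-06).

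*Mcpt2*, another mucosal chymase, was at 8.00, 0, 0, 0.770 and 0.328 CPM in controls and 28.4, 23.9, 82.1, 34.3 and 26.5 CPM at 60 ppm, a log2 difference of 4.09 (SE 0.779, adjusted p = 7.02e-06). In a list of mast cell genes drawn up after the values were seen, 5 of 13 tested rose (*Il1rl1*, *Mcpt1*, *Mcpt2*, *Cpa3* and *Fcer1a*) and 0 fell. *Fcer1a*, part of the IgE receptor, had 0 counts in all controls and was at 2.91, 1.2, 7.79, 4.25 and 0.190 CPM at 60 ppm, which is at least 22.8-fold higher when the control group is put at a floor of 3 counts over its libraries. That call was lost without mouse 404 and without control mice 3 and 5, the latter leaving 4 of the mast cell list higher, and the call of *Cpa3* was lost with legacy=TRUE.

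Other genes with large or firm increases were *Mboat1*, a lysophospholipid acyltransferase, at 0 to 5.82 CPM in controls and 48.5 to 95.2 CPM at 60 ppm, *Gcnt3*, which branches mucin glycans, at 15.3 to 33.1 CPM and 111 to 142 CPM, and *Epha2*, a receptor tyrosine kinase, at 58.7 to 104 CPM and 266 to 611 CPM. Their log2 differences were 4.46 (SE 0.630), 2.53 (SE 0.327) and 2.40 (SE 0.310). The calcium-binding protein gene *S100a14* was at 13.6, 9.005, 2.22, 10.8 and 0 CPM in controls and 114, 74.4, 98.6, 75.6 and 80.9 CPM at 60 ppm (3.51 (SE 0.481, adjusted p = 1.02e-08)). *Fosl1*, an AP-1 subunit, rose by 3.22 (SE 0.853) from levels of 0 to 4.59 CPM in controls. *Reg3a*, a lectin of epithelial defence, went the other way, at 7.32 to 59.2 CPM and 1.26 to 3.11 CPM (-3.08 (SE 0.747)).

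Marker lists of 17 cell types were summed in each mouse. All 10 crypt markers were measured in all groups, and their sum was 648 to 1153 CPM in controls and 1067 to 1321 CPM at 60 ppm, with 1 marker called higher and 0 lower. Paneth cell markers summed to 7803 to 19513 CPM and 7593 to 16056 CPM, and villus enterocyte markers to 7980 to 16055 CPM and 7854 to 13572 CPM, of which 4 of 10 were called lower and 0 higher. Among enterocyte markers not called, *Alpi* (0.68, without overlap), *Klf4* (0.83), *Fabp1* (0.45) and *Sis* (0.40) had log2 differences above 0. *Apoa1* (-0.61) and *Slc2a2* (-0.56) lay below 0. Of 7 Paneth cell markers 1 was called lower, or 2 with DESeq2's size factors, and that 1, the defensin *Defa5*, was lost without control mouse 3, without control mice 3 and 5 and with legacy=TRUE. Enterocyte transcripts were thus present in tissue labelled as crypt, and *Mme*, for example, was at 2296 ± 519 CPM in control villi against 815 ± 213 CPM in control crypts.

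Most T cell markers fell. Their sum ran from 170 to 287 CPM in controls and from 39.4 to 75.5 CPM at 60 ppm, and 5 of 8 genes were called lower and 0 higher. *Gzma*, a granzyme of cytotoxic lymphocytes, was at 61.8, 165, 168, 144 and 199.8 CPM in controls and 49.7, 29.9, 29.7, 32.8 and 24.4 CPM at 60 ppm (-2.13 (SE 0.386, adjusted p = 1.67e-05)). The chemokine gene *Ccl5* was at 25.8 to 42.8 CPM and 2.11 to 5.74 CPM (-2.97 (SE 0.546, adjusted p = 8.35e-06)), and the receptor component *Cd3g* at 0 to 26.3 CPM and 1.47 to 4.07 CPM (-2.51 (SE 0.655, adjusted p = 0.00137)).

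Enteroendocrine markers summed to 462 to 633 CPM in controls and 287 to 416 CPM at 60 ppm, with 4 of 10 lower and 0 higher. The 4 were the hormones *Gip* (-1.59 (SE 0.364)), *Ghrl* (-1.78 (SE 0.447)) and *Sst* (-1.30 (SE 0.350)) and the granule protein *Chga* (-1.02 (SE 0.300)), the last of which was lost without control mice 3 and 5. The list had no common direction. Among markers not called, *Cck* had a log2 difference of -1.07. *Chgb* (0.21), *Sct* (0.20), *Nts* (0.30), *Neurod1* (0.83) and *Tph1* (1.61) lay above 0. Smooth muscle markers summed to 1793 to 2960 CPM and 1319 to 1710 CPM, with 5 of 8 lower. *Myh11*, smooth muscle myosin, was at 251, 291, 325, 280.2 and 236 CPM in controls and 36.1, 70.3, 76.7, 69.6 and 57.7 CPM at 60 ppm (-2.15 (SE 0.425, adjusted p = 8.45e-05)), and *Acta2* and *Cnn1*, actin and calponin of the same cells, fell, with log2 differences of -1.90 (SE 0.441) and -2.10 (SE 0.458).

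Goblet cell markers overlapped, at 2338 to 8230 CPM in controls and 4782 to 7650 CPM at 60 ppm, where the highest control was mouse 5. Of 7 goblet cell markers 3 were called higher and 0 lower, or 2 and 0 with DESeq2's size factors. Those not called were *Zg16*, with a log2 difference of -0.33, and *Clca1* (0.12), *Spink4* (0.65) and *Atoh1* (0.73). *Fcgbp*, a mucus protein, was at 708, 1246, 929, 900.4 and 742 CPM in controls and 4410.0, 2735, 2536, 2637 and 2404 CPM at 60 ppm (1.70 (SE 0.278, adjusted p = 2.50e-06)), *Spdef*, a transcription factor of secretory cells, rose by 1.32 (SE 0.348) and *Muc2*, the main mucin, by 0.77 (SE 0.266), the last call being lost in 11 alternatives, among them DESeq2, DESeq2's size factors (0.49), total count scaling (0.42), summed probes, thinned counts and leaving out mouse 3, mouse 7, mouse 404 or control mice 3 and 5.

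Pancreatic acinar markers, from tissue next to the duodenum, ran from 12.4 to 142907 CPM in controls and from 42.8 to 17666 CPM at 60 ppm, and none of 15 was called. The highest control was mouse 5. With acinar probes left out, an alternative chosen after seeing the data, 3540 genes passed. Markers of other tissue elements were lower in part. Of 5 pancreatic islet markers 3 were called lower, with sums of 0 to 89.2 CPM in controls and 1.91 to 13.0 CPM at 60 ppm, and the insulin gene *Ins2* differed by -4.01 (SE 1.39, adjusted p = 0.00629), at 0 to 43.4 CPM and 0 to 1.98 CPM. Of 6 fibroblast markers 2 were lower, the matrix proteoglycans *Dcn* (-1.18 (SE 0.327)) and *Lum* (-1.40 (SE 0.535)), or 4 with DESeq2's size factors, and of 5 endothelial markers 1 was lower. Fibroblast sums overlapped, at 518 to 770 CPM in controls and 442 to 544 CPM at 60 ppm. The fibroblast markers not called lay on both sides of 0: *Col1a1* (0.23), *Pdgfra* (0.40), *Col1a2* (-0.46) and *Col3a1* (-0.54). No B and plasma cell, myeloid, erythrocyte, tuft cell, Brunner's gland or enteric neuron and glia marker passed, and the tuft cell marker *Gfi1b* was at 0. With DESeq2's size factors 1 tuft cell, 1 acinar and 1 myeloid marker were called lower. The T cell, enteroendocrine and smooth muscle sums did not overlap between the groups, and the sums of the other cell types did. What part marker levels had in the results of the gene lists was not tested.

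**Figure D4:**
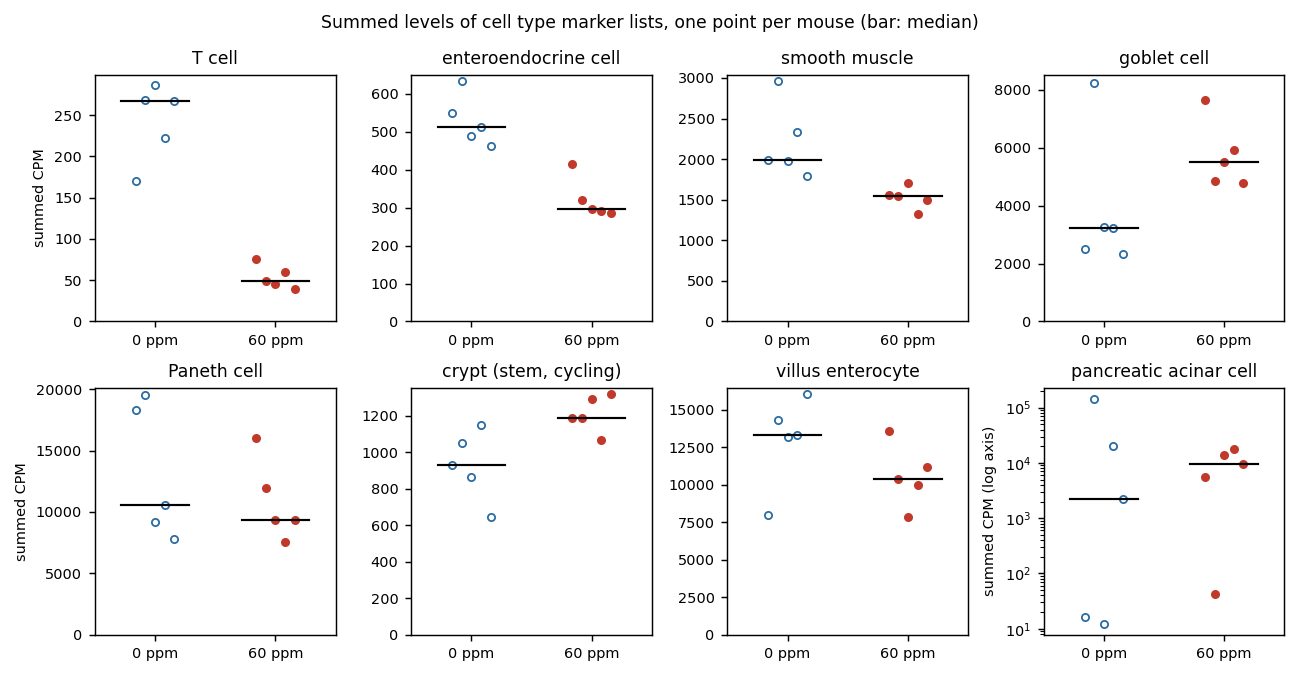
Summed CPM of the markers of 8 cell types in each mouse (point) with the group median (bar), for 0 ppm and 60 ppm crypts at day 91; the acinar panel has a log axis. T cell, enteroendocrine and smooth muscle sums do not overlap between groups, with T cells at 170 to 287 CPM in controls and 39.4 to 75.5 CPM at 60 ppm.

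Day 91 was set against day 8 by the interaction of 60 ppm with time, which asks whether the change differed between the days. A higher difference at day 91 need not be a change that grew. The day 8 means of *Hspa8* and *Banp*, for example, were lower at 60 ppm. It passed in 1388 genes, 1122 with a higher difference at day 91 and 275 with a lower one, or 5.18% and 0.962% of genes by 1 probe a gene (6.15% in all). The direction depended on scaling, with 592 genes higher and 634 lower with DESeq2's size factors, and 799 and 772 in DESeq2. The count depended on single libraries and fell to 639 without control mouse 3, 755 without control mouse 6 and 497 without day 8 control mouse 46. *Hspa8* had the smallest p: it was at 556 ± 96.8 CPM in controls and 379 ± 101 CPM at 60 ppm at day 8 (SD, n = 5), and at 455 ± 142 and 1481 ± 321 CPM at day 91, a difference between the changes of 2.26 (SE 0.331, adjusted p = 7.70e-06). *Banp*, a nuclear matrix protein, went from 102 ± 15.0 to 32.8 ± 8.37 CPM at day 8 and from 63.4 ± 12.4 to 101 ± 16.2 CPM at day 91, a difference of 2.30 (SE 0.354, adjusted p = 1.56e-05).

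Of the 26 unfolded protein response genes 9 had a higher difference at day 91 and 0 a lower one, and of the 20 chaperonin and heat shock genes 6 and 0. With DESeq2's size factors the unfolded protein response list had 6 higher and 5 lower and the chaperonin list 4 higher and 1 lower. *Ero1l* was at 241 ± 71.0 CPM in day 8 controls and 332 ± 97.4 CPM at 60 ppm, so that its change was larger at day 91 by 1.65 (SE 0.316, adjusted p = 0.000841). *Gclm* and *Klf5* also changed more at day 91, by 1.71 (SE 0.407, adjusted p = 0.00577) and 1.52 (SE 0.415, adjusted p = 0.0196). In the replication and mitosis lists 0 members had a higher difference at day 91 and 0 and 1 a lower one.

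Several genes had a lower difference at day 91, among them some whose mean had not fallen at day 8. The smooth muscle genes *Myh11* and *Pdlim3* differed by -2.53 (SE 0.582, adjusted p = 0.00438) and -2.56 (SE 0.558, adjusted p = 0.0022), *Pdlim3* being at 34.9 ± 15.4 and 49.1 ± 45.0 CPM at day 8 and 46.9 ± 6.33 and 10.4 ± 2.95 CPM at day 91. *Mylk*, myosin light chain kinase, differed at one probe by -2.63 (SE 0.534, adjusted p = 0.00128), while its other probe, with a day 91 log2 difference of 0.19 (SE 0.307), did not follow, and with counts summed over probes the value was 0.11. *Tap2* differed by -2.03 (SE 0.657, adjusted p = 0.0349). *Gkn3*, a gastric peptide, had a difference of -4.38 (SE 0.932, adjusted p = 0.00132) that came from mouse 448, a 60 ppm mouse at day 8 with 434 CPM where the median was 4.33 CPM, and without it the value was -0.87 and did not pass.

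For *Pck1*, *Sectm1b* and *Mcpt1* the day 8 means differed in the same direction: *Pck1* was at 385 ± 342 CPM in controls and 15.6 ± 11.9 CPM at 60 ppm, *Sectm1b* at 841 ± 509.6 and 36.8 ± 37.9 CPM, and *Mcpt1* at 23.8 ± 13.8 and 244 ± 152 CPM. None of the 3 passed the test of a difference between the days.

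The same mice gave villus tissue, and the change at 60 ppm was compared between compartments at day 91 (4 control and 5 exposed villus libraries). Few genes differed: 18, of which 2 had a higher difference in the crypt and 16 a lower one, or 0.00526% and 0.0841% of genes by 1 probe a gene (0.0894% in all). With mouse as a block, since the labels tie crypt and villus to the same animal, 201 genes passed, 42 higher and 159 lower. Without villus control mouse 7 the unblocked count was 156, and it was 5 without crypt mouse 403 or 406.

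*Pdgfra*, a receptor of stromal cells, was at 25.5 ± 11.9 CPM in control villi and 202 ± 46.5 CPM at 60 ppm, and at 29.1, 101, 69.1, 66.8 and 75.3 CPM in control crypts and 114, 90.6, 68.9, 81.5 and 93.1 CPM at 60 ppm, where the ranges overlapped, a difference of -2.58 (SE 0.444, adjusted p = 0.000913). *Igfbp3*, a binding protein of insulin-like growth factors, was at 126 ± 66.5 and 192 ± 27.8 CPM in villi but at 204, 284, 153, 135 and 160.2 CPM in control crypts and 76.5, 68.6, 51.2, 82.7 and 53.5 CPM at 60 ppm, a difference of -2.09 (SE 0.419, adjusted p = 0.0111). *Osbpl1a*, an oxysterol-binding protein, was at 83.9 ± 34.8 and 8.34 ± 3.10 CPM in villi and 14.7 ± 5.04 and 10.6 ± 2.82 CPM in crypts (2.71 (SE 0.572, adjusted p = 0.0192)), a call lost without villus control mouse 5. *Adora2a*, an adenosine receptor, had 0 counts in all control villi and 35.6 ± 14.4 CPM in exposed villi, while crypts were at 11.1 ± 4.84 and 13.4 ± 4.95 CPM.

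*Il1rl1* was at 5.21 ± 9.20 CPM in control villi and 218 ± 40.6 CPM at 60 ppm, and *Tap2* at 109 ± 27.1 and 7.53 ± 5.18 CPM. For neither did the test of the difference between compartments pass.

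The place of 60 ppm in the dose series was tested against 20 and 180 ppm at day 91. Against 20 ppm 6 genes passed, all higher at 60 ppm, which is 0.0263% of genes by 1 probe a gene: *S100a6*, *S100a14*, *Mcpt1*, *Mcpt2*, *Stk40* and *Hdac2*. *S100a6* was at 36.9 ± 12.0 CPM at 0 ppm, 64.0 ± 19.3 CPM at 20 ppm and 223 ± 63.1 CPM at 60 ppm (SD, n = 5), a difference of 1.79 (SE 0.327, adjusted p = 0.00283) from 20 ppm. *Mcpt1* was at 23.7 ± 15.2 CPM at 20 ppm against 159 ± 109 CPM at 60 ppm, a difference of 2.74 (SE 0.580, adjusted p = 0.025). The number was 2 without mouse 325 or 327 of the 20 ppm group, and 1090 when only day 91 crypts were fitted.

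Between 60 and 180 ppm 179 genes passed, 12 higher at 180 ppm and 167 lower, or 0.0421% and 0.794% of genes by 1 probe a gene (0.836% in all). This count rested on single mice, with 1 gene left without mouse 485 of the 180 ppm group, 5 without mouse 402 and 8 without mouse 403. The direction depended on scaling too, with 13 higher and 25 lower with DESeq2's size factors, and 189 and 235 in DESeq2. *Ddhd2*, a phospholipase, was at 101 ± 16.02 CPM at 60 ppm and 34.3 ± 8.58 CPM at 180 ppm (-1.54 (SE 0.282, adjusted p = 0.00246)) at one probe, while the other, with more counts, differed by -0.56 (adjusted p = 0.18) and did not pass. *Ero1l* was at 595 ± 98.1 CPM at 20 ppm, 953 ± 178 CPM at 60 ppm and 547 ± 124 CPM at 180 ppm, and its log2 difference of 180 against 60 ppm was -0.80 (SE 0.221, adjusted p = 0.0818). *Abcb1a*, at the probe with the larger change, had the same shape, with 102 ± 30.1, 192 ± 33.3 and 91.2 ± 31.9 CPM and a change of -1.07 (SE 0.266, adjusted p = 0.0477). Neither of these differences passed with DESeq2's size factors, under which they were -0.64 (adjusted p = 0.214) and -0.92 (adjusted p = 0.138). The other *Abcb1a* probe, with more counts, was at 272 ± 97.7, 367 ± 32.9 and 253 ± 49.0 CPM, and its difference of -0.53 (adjusted p = 0.592) did not pass. *Hspa1b* was the reverse, at 9.15 ± 3.88 CPM at 60 ppm and 59.2 ± 68.0 CPM at 180 ppm (2.67 (SE 0.545, adjusted p = 0.00653)), a call lost without mouse 485.

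Across the series at day 91, several of the genes that fell at 60 ppm were lower at lesser concentrations in their means. *Pck1* was at 268 ± 98.2, 104 ± 86.0, 27.3 ± 16.7, 7.59 ± 2.02 and 7.68 ± 3.66 CPM at 0, 5, 20, 60 and 180 ppm, so that the values at 60 and 180 ppm were within their spread. *Tap2* was at 39.0 ± 15.7, 17.4 ± 2.78, 12.3 ± 2.12, 3.13 ± 1.49 and 8.87 ± 4.03 CPM, lowest at 60 ppm. *Gzma* was within the control spread up to 5 ppm (144 ± 34.9 CPM) and at 41.3 ± 14.4 CPM at 20 ppm. All doses share the same control mice.

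**Figure D5:**
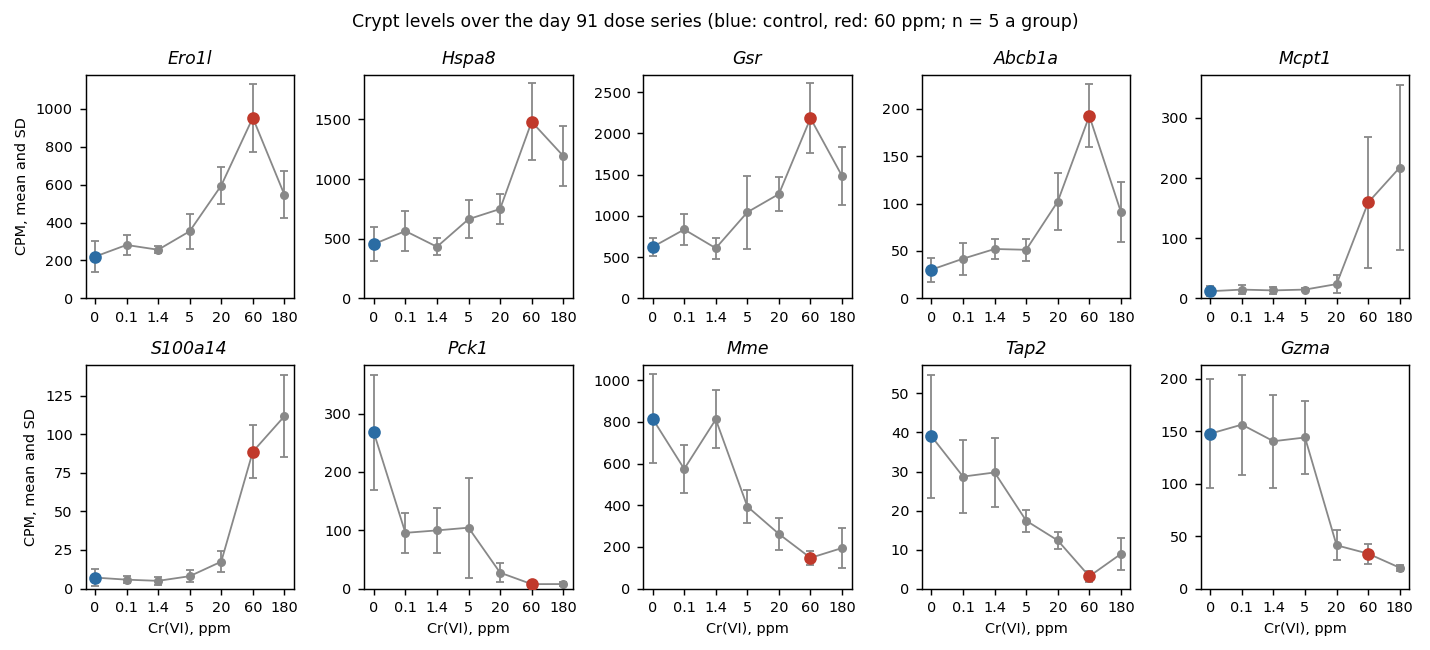
Mean CPM ± SD (n = 5) of 10 genes in day 91 crypts at 0, 0.1, 1.4, 5, 20, 60 and 180 ppm Cr(VI), evenly spaced on the x axis. *Ero1l*, *Gsr* and *Abcb1a* peak at 60 ppm in their means, *Mcpt1* and *S100a14* stay well below their 60 ppm level up to 20 ppm, and *Pck1*, *Mme*, *Tap2* and *Gzma* are low from 20 ppm on.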

How the data were processed

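TempO-Seq libraries were made by the study from formalin-fixed duodenal crypt and villus sections of single mice, 1 library per mouse and compartment. Per the labels and the study's methods, reads were demultiplexed with bcl2fastq 2.17.1.14 and assigned to probes with Bowtie (version not given in the sources used here), and the deposited counts are whole reads per probe, not normalized, in 1 table of 71 crypt and 66 villus libraries in 28 groups, all of whose columns were used. Libraries of low depth or diversity had been left out by the authors. The 5 crypt libraries at 60 ppm and the 5 at 0 ppm after 90 days were compared as the labels group them.

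Counts were fitted in R 4.3.3 with edgeR 4.0.16 (TMM, filterByExpr, glmQLFit with legacy=FALSE, prior count 2), in 1 fit of all libraries, with Benjamini-Hochberg adjustment over 26365 probes and a threshold of 0.1. CPM were computed as counts over effective library sizes (total times TMM factor). In list counts, a gene was represented by its probe with the highest total count. Differences between day 91 and day 8 and between crypt and villus were interaction terms, and 60 ppm was also set against 20 and 180 ppm. Exact permutation tests listed every split in Python 3.11.15 with numpy 2.4.6, and figures used matplotlib 3.10.9. A group with only zeros was put at a floor of 3 counts, which covers counting error only. The fit was tested on simulated counts with 200 changed probes.

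Named genes were the 10 higher and 10 lower non-overlapping genes with the smallest p and the 5 of each with the largest change (mean CPM of at least 10), up to 3 per direction and the highest in each of 32 lists, those the study names for crypts, and up to 3 per direction in each difference; further mast cell, class I and cell type marker genes were named after their values were seen. The members and lists were chosen with earlier results of these data known. Nothing says whether mice of a group shared a cage or slide, and the p-values do not allow for it. Those of the fit rest on a spread estimated over all libraries and groups. Crypt and villus of a mouse were treated as independent there. They are thus not a measure of the spread between the compared mice alone. Crypt and villus of the same mouse carry the same number in the labels, and deviations from group means correlated at a median of 0.0601 (9 pairs) against -0.0202 for 36 other pairs. RefSeq promoters (GRCm38.p6) matched 14473 of 19020 tested genes by symbol, 76.1%, so shares over all tested genes are void and only lists with at least 80% matched were used. Alternatives were DESeq2 1.42.0, other scalings, filters and covariates, thinning, summed probes, fits of fewer libraries and leaving out each library.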

Additional observations from a re-analysis of the deposited data

Results flagged for a closer look

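Of 308 groups of 5 mice examined, 23 held a mouse far from the others by Dixon's ratio (the gap to the next mouse over the range), where chance flags about 1 in 20. In controls, mouse 8 stood apart in *Gcnt3* (ratio 0.766), *Cyp3a25* (0.819), *Pcna* (0.795, at 54.7 CPM where the next mouse had 121 CPM) and *Olfm4* (0.712). Mouse 3 stood apart in *Mcpt2* (0.904, at 8.00 CPM against 0.770 CPM), *Eif5* (0.863), *Cd74* (0.722) and *Reg3a* (0.762). Mouse 5 did so in *Il1rl1* (1, the only control above 0), *Rpl18* (0.71), the goblet cell sum (0.843), the pancreatic acinar sum (0.861, at 142907 CPM against 19886 CPM) and the erythrocyte sum (1), and mouse 7 in *Ephb2* (0.743) and the fibroblast sum (0.879).

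Among exposed mice, mouse 402 was the highest in *Il1rl1* (0.886, at 76.1 CPM against 35.2 CPM), *Fosl1* (0.789), *Fcgbp* (0.835), *Spdef* (0.81) and the enteroendocrine sum (0.739). Mouse 404 was the highest in *Mcpt2* (0.822) and the Brunner's gland sum (0.978, at 43.8 CPM against 0.971 CPM), and the lowest in *Mgam* (0.832).

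The effect of 60 ppm differed between day 91 and day 8 in 1388 genes, among the named ones *Hspa8* (2.26 on the log2 scale), *Banp* (2.30), *Golga4* (2.07), *Mylk* (-2.63 at one probe), *Pdlim3* (-2.56) and *Gkn3* (-4.38, from the day 8 mouse 448). It differed between crypt and villus in 18 genes, among them *Osbpl1a* (2.71), *Nabp2* (2.58, a call lost in 10 alternatives, among them summed probes with 1.35 and legacy=TRUE), *Pdgfra* (-2.58), *Igfbp3* (-2.09) and *Adora2a* (-5.78, a fitted value against villus controls at 0 that depends on the prior count).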

How the results depend on the processing

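The 60 ppm comparison of 3375 genes ranged from 2381 to 3361 when each of the 10 libraries was left out. It came to 2128 without control mice 3 and 5 together (chosen after seeing the data) and 2097 with edgeR's legacy=TRUE. With day 91 crypts fitted alone it was 5898, and with the 10 libraries alone 5028. No paired analysis of it was possible because exposed and control mice are different animals. The difference between days, 1388 genes, ranged from 497 to 1828 without single libraries, the lower values being 639 without crypt control mouse 3, 755 without control mouse 6, 812 and 884 without exposed mice 402 and 403, 916 without day 8 mouse 450 and 497 without day 8 control mouse 46. The difference between compartments, 18 genes, came to 201 with the replicate block for mouse, 169 with DESeq2, 9 with DESeq2's size factors, 42 with summed probes, and 5 to 156 without single libraries, the highest without villus mouse 7. The 60 against 20 ppm comparison, 6 genes, came to 1090 with day 91 crypts alone, 143 with DESeq2, 2 with legacy=TRUE and 2 to 7 without single libraries. The 180 against 60 ppm comparison, 179 genes, came to 39 with no filter, 1917 with day 91 crypts alone, 421 with DESeq2, 38 with DESeq2's size factors, 43 with legacy=TRUE, 40 with summed probes and 1 to 82 without single libraries, the lowest without mouse 485.

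Of 130 called gene and probe values of the 60 ppm comparison, 110 kept direction and call in all alternatives run. Many of these genes were named for a small p or a large change in this comparison, so that share holds for chosen genes only. Of all 3375 genes called, 2062 were also called with legacy=TRUE, 2054 without control mice 3 and 5 and 2338 with DESeq2. Over all named values, settings other than leaving out a library gave 1970 with the same call, 59 that lost it, 4 that gained it and 4 that changed sign, which were *Vil1* (-0.0217 with total count scaling), *Olfm4* (-0.10 with log10 total count as a covariate and -0.0406 with total count scaling) and the *Mylk* difference between days (0.11 with summed probes). Leaving out a library gave 1605 with the same call and 50 that lost it. The cause of these changes was not tested. Mean depth was lower in controls, and levels near 1 CPM rest on few counts.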
